A study of Mus musculus with 6 samples.

Results

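The subject of these measurements was the liver's blood clotting genes in mice with and without Nrg4, the gene of neuregulin 4, a growth factor that brown fat secretes and that signals through ErbB receptors. The set of 10 genes held the fibrinogen chains Fga, Fgb and Fgg, the clotting factors F2, F5, F7, F9, F10 and F11, and the clotting inhibitor Serpinc1, chosen by symbol. All 10 of 10 were found on the array among 17097 genes with a probe set of 1 gene symbol. They had 13 of the array's 45141 probe sets, with 3 for F10, 2 for F5 and 1 for each other gene, and where a gene had several, the one with the highest mean over all arrays stood for it. The wild-type group and the Nrg4 knockout group were C57BL/6 mice by their labels, and both were put on high-fat food when 3 months old, kept on it for 8 weeks and fed ad lib until the liver was taken. Each group was measured on 3 Affymetrix MG-430 PM strip arrays, with a separate RNA pool on each. The labels used here do not state how many mice, or of which sex, made up a pool, nor how the allele was made. The errors and p-values below therefore measure spread between pools and not between mice. Limma's errors also draw on the spread of all genes tested, so a gene of small own spread gets a larger error.

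As background, clotting runs through a chain of plasma proteases that circulate as inactive zymogens, most of them made by hepatocytes. Factors II, VII, IX and X carry residues carboxylated with the help of vitamin K. Factor V is a cofactor that speeds the cleavage of prothrombin to thrombin, and thrombin cuts fibrinogen, a protein of paired alpha, beta and gamma chains, into fibrin. Antithrombin, the product of Serpinc1, inactivates thrombin and factor Xa. Fibrinogen is also an acute phase protein, made in larger amounts by hepatocytes that receive interleukin-6.

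No difference between the genotypes was detected in the 10 coagulation genes. At an adjusted p under 0.05 (limma, with Benjamini-Hochberg adjustment over the 12466 genes tested) 0 of 10 passed, where 0.0401% of all genes did (0.016% higher and 0.0241% lower in the knockout). At an adjusted p under 0.10 the count was again 0 of 10, with 0.241% of all genes, and 0 of 13 probe sets of these genes passed in a fit of every probe set, where 0.0481% did. In turn 0 of 10 had an unadjusted p under 0.05, where 9.55% of all genes did, 7.36% higher and 2.18% lower. The smallest limma adjusted p among them was 0.727 (F11) and the largest 0.957 (F2). In 9 of 10 the mean was higher in the knockout, as it was in 63.4% of all genes tested, and the median difference of the 10 on the log2 scale was 0.08, against 0.045 over all genes tested. The 95% limma intervals of all 10 differences held 0. Those of 9 of 10 lay inside 1.3-fold in either direction, so for these genes a larger difference lay outside the interval. These intervals are not adjusted for the number of genes.

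The fibrinogen genes sit side by side on 1 chromosome in RefSeq assembly GRCm38.p6, with Fga between Fgg and Fgb, and their differences were close to each other. The 250 bases before the start of each are shown because the 3 chains are the members whose promoters are known for a shared response to interleukin-6. They come from RefSeq's GRCm38.p6 promoter table and read 5′ to 3′ on the gene's own strand. Capitals mark matches on either strand to the interleukin-6 response element core CTGGGAA, the HNF1 core GTTAAT or the C/EBP pattern TTGCNNAA, and no matches overlapped in these promoters.
Fga (chr3:83025903-83026152, plus strand): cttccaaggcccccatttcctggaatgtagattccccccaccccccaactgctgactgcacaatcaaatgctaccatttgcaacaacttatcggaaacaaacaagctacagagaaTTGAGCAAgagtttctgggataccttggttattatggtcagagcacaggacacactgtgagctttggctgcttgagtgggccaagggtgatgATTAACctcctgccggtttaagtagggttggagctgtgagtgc
Fgb (chr3:83049864-83050113, minus strand): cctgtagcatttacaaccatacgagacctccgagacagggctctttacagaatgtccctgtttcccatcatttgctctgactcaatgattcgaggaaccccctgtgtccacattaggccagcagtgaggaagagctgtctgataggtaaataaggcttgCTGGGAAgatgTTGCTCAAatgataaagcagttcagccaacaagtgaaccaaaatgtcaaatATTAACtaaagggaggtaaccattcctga
Fgg (chr3:83007474-83007723, plus strand): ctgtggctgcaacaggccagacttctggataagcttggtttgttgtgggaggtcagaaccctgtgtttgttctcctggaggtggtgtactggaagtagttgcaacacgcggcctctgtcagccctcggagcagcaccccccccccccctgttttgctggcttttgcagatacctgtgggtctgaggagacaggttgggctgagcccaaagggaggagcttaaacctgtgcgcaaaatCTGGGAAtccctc

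The interleukin-6 core was present in Fgb, from 91 to 85 bases before the start, and in Fgg, from 13 to 7 bases before it. Fga had no full match, but it holds the core's first letters, CTGGGA, before a different last letter. How many windows hold this shorter form was not counted. The HNF1 core was present in Fga, from 43 to 38 bases before the start, and in Fgb, from 29 to 24. The C/EBP pattern was present in Fga, from 135 to 128 bases before the start, and in Fgb, from 80 to 73. Among all 10 coagulation genes, 3 held the interleukin-6 core (F9, Fgb and Fgg), 2 the HNF1 core and 4 the C/EBP pattern (F9, F11, Fga and Fgb). Of 32851 promoter windows of the same length, 9.1%, 6.43% and 9.56% held them. A match of these letters is a description and does not show a bound site.

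Fibrinogen RNA was nearly level across the 6 pools. Values are on the log2 scale of robust multi-array average (RMA) expression, where a difference of 1 is 2-fold, and are given for replicates 1, 2 and 3. Fga, the alpha chain, read 10.91, 10.87 and 10.998 in wild type and 10.97, 11.04 and 10.97 in the knockout. The groups overlapped, with wild-type replicate 3 above knockout replicates 1 and 3. Fgb, the beta chain, read 11.19, 11.09 and 11.23 in wild type and 11.15, 11.38 and 11.32 in the knockout. Knockout replicates 2 and 3 lay above all wild-type pools and knockout replicate 1 lay among them. Fgg, the gamma chain, read 11.35, 11.39 and 11.48 in wild type and 11.46, 11.49 and 11.57 in the knockout. Here only wild-type replicate 3 and knockout replicate 1 crossed.

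As a fold, Fga was 4.84% higher in the knockout (95% interval -8.06% to 19.5%; log2 difference 0.07, SE 0.08, limma adjusted p = 0.829). The difference of Fgb was 8.26% (-6.77% to 25.7%; log2 0.11, SE 0.09, limma adjusted p = 0.732). Fgg differed by 7.36% (-6.09% to 22.7%; log2 0.10, SE 0.08, limma adjusted p = 0.733). All 3 intervals held 0. These probe sets are bright, with means 1.57, 1.31 and 1.08 under the highest value of the table, 12.53. Whether bright spots had begun to saturate was not tested.

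**Figure D1:**
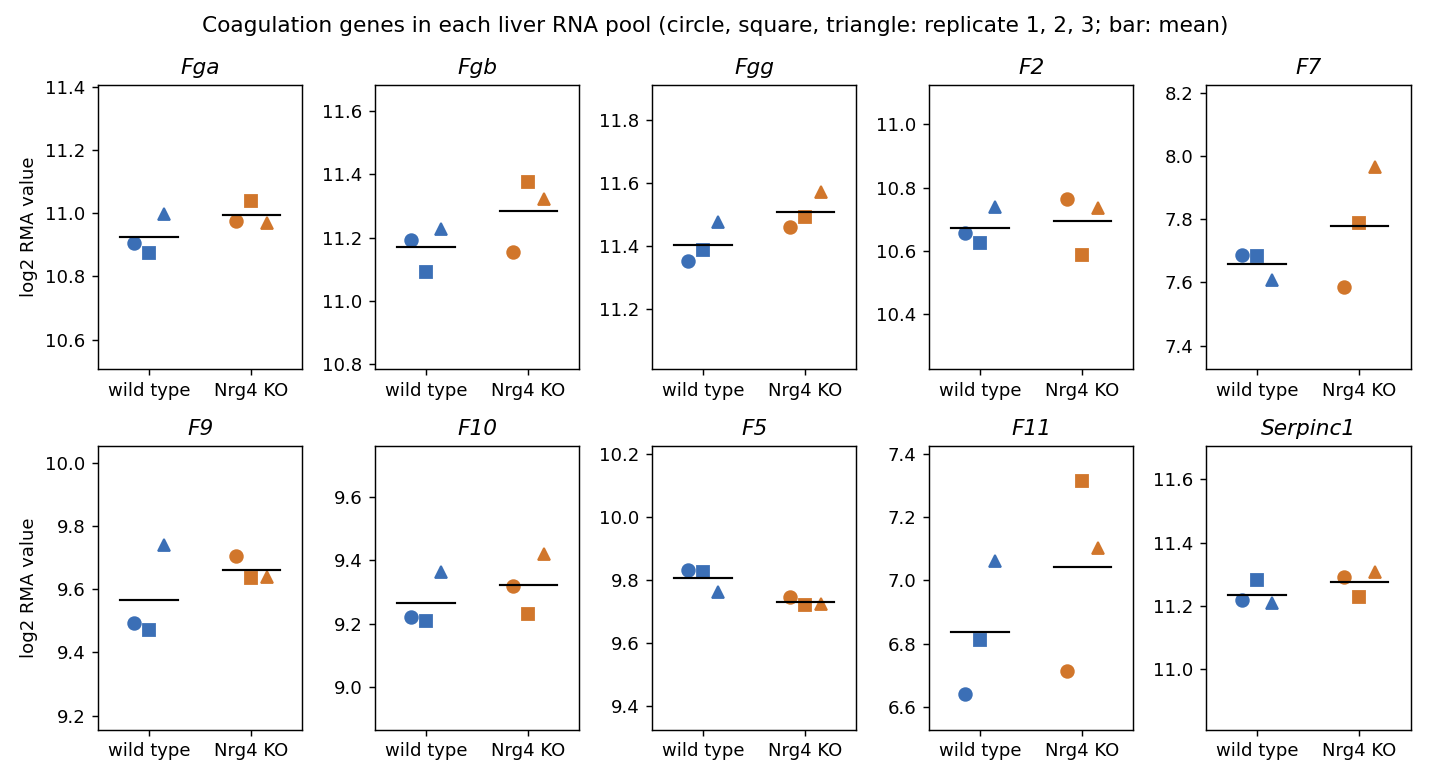
Log2 RMA value (vertical axis) of each of the 10 coagulation genes in the wild-type pools (blue) and the Nrg4 knockout pools (orange), with the 3 replicates as circle, square and triangle and the mean as a black bar; every panel spans the same 0.9 log2 units. The groups overlap in 9 of 10 genes, and the widest spread is that of F11, from 6.64 to 7.31.

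The 4 vitamin K dependent zymogens had small differences, and none passed the test. F2, prothrombin, read 10.66, 10.62 and 10.74 in wild type and 10.77, 10.59 and 10.74 in the knockout. It was the member with the smallest difference, 1.53% (95% interval -11.9% to 17.0%; limma adjusted p = 0.957), and its highest and lowest pools were both knockout pools. F7, the zymogen that binds tissue factor to start clotting, read 7.69, 7.68 and 7.61 in wild type and 7.59, 7.79 and 7.97 in the knockout. The knockout pools ran from below all wild-type pools (replicate 1) to above all of them (replicates 2 and 3), and the SD was 0.05 in wild type and 0.19 in the knockout (n = 3 each). The difference of F7 was 8.76% (-8.55% to 29.3%; log2 0.12, SE 0.11, limma adjusted p = 0.762).

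F9, the zymogen whose loss causes haemophilia B, read 9.49, 9.47 and 9.74 in wild type and 9.70, 9.64 and 9.64 in the knockout. Wild-type replicate 3 lay above the knockout pools and the other wild-type pools lay below them. The difference was 6.63% (95% interval -8.80% to 24.7%; limma adjusted p = 0.806). F10, which cleaves prothrombin once activated, read 9.22, 9.21 and 9.36 in wild type and 9.32, 9.23 and 9.42 in the knockout, and the groups interleaved. Its difference was 4.19% (-9.99% to 20.6%; limma adjusted p = 0.87). The other 2 probe sets of F10 were dimmer, with wild-type means of 6.26 and 5.88, and both gave a log2 difference of -0.02 (SE 0.09 and 0.13). The probe sets of this gene did not share a sign, and each difference was smaller than its SE.

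F5, the cofactor of factor Xa, was the 1 member with a lower mean in the knockout and the 1 whose groups did not overlap. It read 9.83, 9.83 and 9.76 in wild type and 9.75, 9.72 and 9.73 in the knockout (log2), so every knockout pool lay under every wild-type pool, the nearest by little. Among all genes tested, 3.92% had knockout values wholly below wild type and 15.6% had no overlap in either direction. The difference was -5.07% (95% interval -16.2% to 7.58%; log2 -0.08, SE 0.08, limma adjusted p = 0.803). This SE draws on all genes tested, whose median residual SD was 0.13, against 0.03 for F5 itself. The second probe set of F5 overlapped, at 9.22, 9.25 and 9.03 in wild type and 9.02, 9.24 and 9.18 in the knockout. That probe set had a log2 difference of -0.02 (SE 0.10).

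F11, a zymogen that activates factor IX, had the largest difference and the widest spread of the 10. It read 6.64, 6.81 and 7.06 in wild type and 6.71, 7.31 and 7.10 in the knockout, with SDs of 0.21 and 0.31 (n = 3 each). Knockout replicate 1 lay among the wild-type pools and the other knockout pools above them. The difference was 15.3%, with the widest interval, -11.4% to 50.0% (log2 0.21, SE 0.17, limma adjusted p = 0.727). Klkb1, the prekallikrein gene next to F11 on the chromosome, had a log2 difference of -0.14 (SE 0.09, limma adjusted p = 0.636).

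Serpinc1, which encodes antithrombin, had the smallest range over the 6 pools of the 10 members. It read 11.22, 11.28 and 11.21 in wild type and 11.29, 11.23 and 11.31 in the knockout, a range of 0.10 over all 6 pools. The pools of both genotypes interleaved, and within genotypes F5 varied less, with SDs of 0.04 and 0.01 against 0.04 and 0.04 (n = 3 each). The difference was 2.84% (95% interval -9.49% to 16.8%; limma adjusted p = 0.904).

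**Figure D2:**
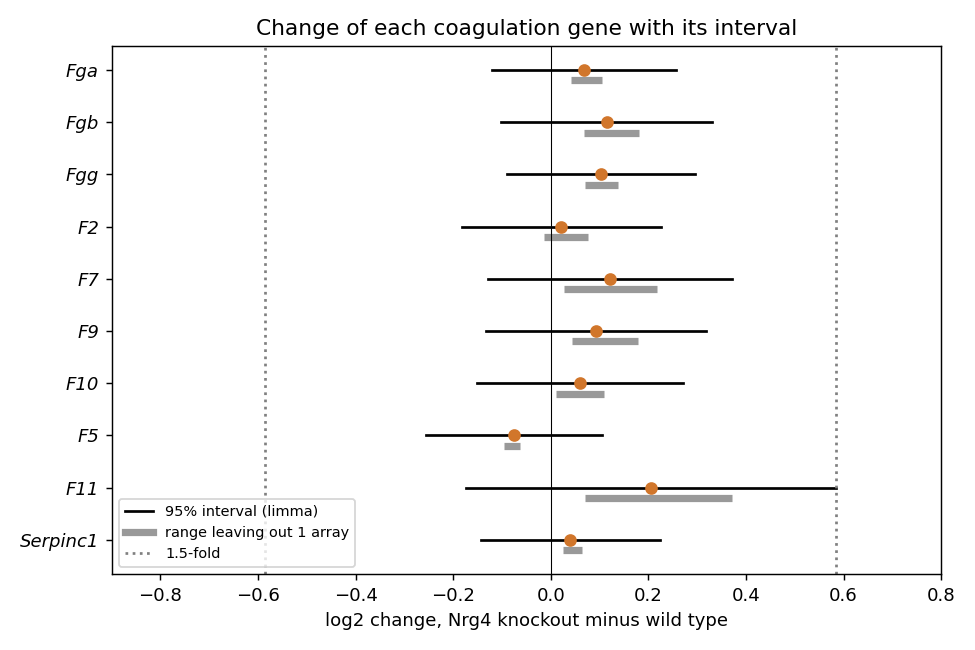
Log2 difference, knockout minus wild type (horizontal axis), of each coagulation gene, with the 95% limma interval as a black line, the range of the difference over fits without 1 array as a grey bar, and 1.5-fold as dotted lines. All intervals hold 0, and that of F11, from -0.17 to 0.58, is the widest.

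The size of several differences rested on single pools, in both directions. Leaving out 1 array moved the log2 difference by over 1.5 times in at least 1 fit for every member except F5 and Fgg. Such a ratio is easily passed where a difference is close to 0. Serpinc1 ran only from 0.02 to 0.06 over these fits, and Fga from 0.04 to 0.10. F11 stood at 0.37 without knockout replicate 1 and 0.32 without wild-type replicate 3, but at 0.07 without knockout replicate 2 and 0.11 without wild-type replicate 1. For F11 the interval excluded 0 without knockout replicate 1 (0.04 to 0.70) and with array weights (difference 0.31, interval 0.003 to 0.62), with limma adjusted p-values of 0.263 and 0.287. F7 stood at 0.22 without knockout replicate 1 and 0.03 without knockout replicate 3. Fgb stood at 0.18 without knockout replicate 1, and at 0.07 without knockout replicate 2 or wild-type replicate 2. The zymogen F9 stood at 0.18 without wild-type replicate 3 and 0.04 without wild-type replicate 2, and F10 at 0.11 without wild-type replicate 3 or knockout replicate 2 and 0.01 without knockout replicate 3. Of the fits without 1 array, the smallest limma adjusted p of any member was the 0.263 of F11. Knockout replicate 1 had the lowest knockout value in 4 of 10 genes, Fgb, Fgg, F7 and F11, replicate 2 in 5 and replicate 3 in 1. The 5′ minus 3′ signal of the Actb control probe sets was -1.84 in knockout replicate 1 and -1.11 and -1.07 in knockout replicates 2 and 3, against -1.47 to -1.27 in wild type. The part of RNA quality in these values was not tested. Among wild-type pools, replicate 3 was the highest in 7 of 10 members.

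Fibrinogen varied little from pool to pool, as did some other acute phase genes, while others varied widely. Of 14 other acute phase genes tested, 13 had their highest value of all 6 arrays in wild-type replicate 3, and 12 had their lowest in wild-type replicate 1 or knockout replicate 2. Saa1, an apolipoprotein of the acute phase, read 8.29, 10.85 and 11.51 in wild type and 10.47, 8.98 and 10.51 in the knockout. Lcn2, an iron carrier binding protein, read 5.30, 7.35 and 9.72 in wild type and 7.34, 6.49 and 7.83 in the knockout. The range over the 6 pools was 9.31-fold for Saa1 and 21.5-fold for Lcn2, and 1.12-fold, 1.22-fold and 1.16-fold for Fga, Fgb and Fgg. The list held narrow genes too, with 1.18-fold for Hpx, the heme carrier hemopexin, and 1.25-fold for Hp, the hemoglobin carrier haptoglobin, and 7 of 14 had a range over 2-fold. All 3 chains were highest among wild-type pools in replicate 3, the pool where these genes peaked. In knockout replicate 2, where Saa1 was low, Fga and Fgb had their highest values of all pools. The array reads Saa1 and Saa2, near-identical genes, through probe sets that may share signal. Saa1, Lcn2, Hpx and Hp were chosen after their values were seen. Hpx and Hp were brighter than the fibrinogen chains, with wild-type means of 11.67 and 11.61, against 10.22 for Saa1 and 7.46 for Lcn2. Whether saturation narrowed the ranges of the bright genes was not tested.

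**Figure D3:**
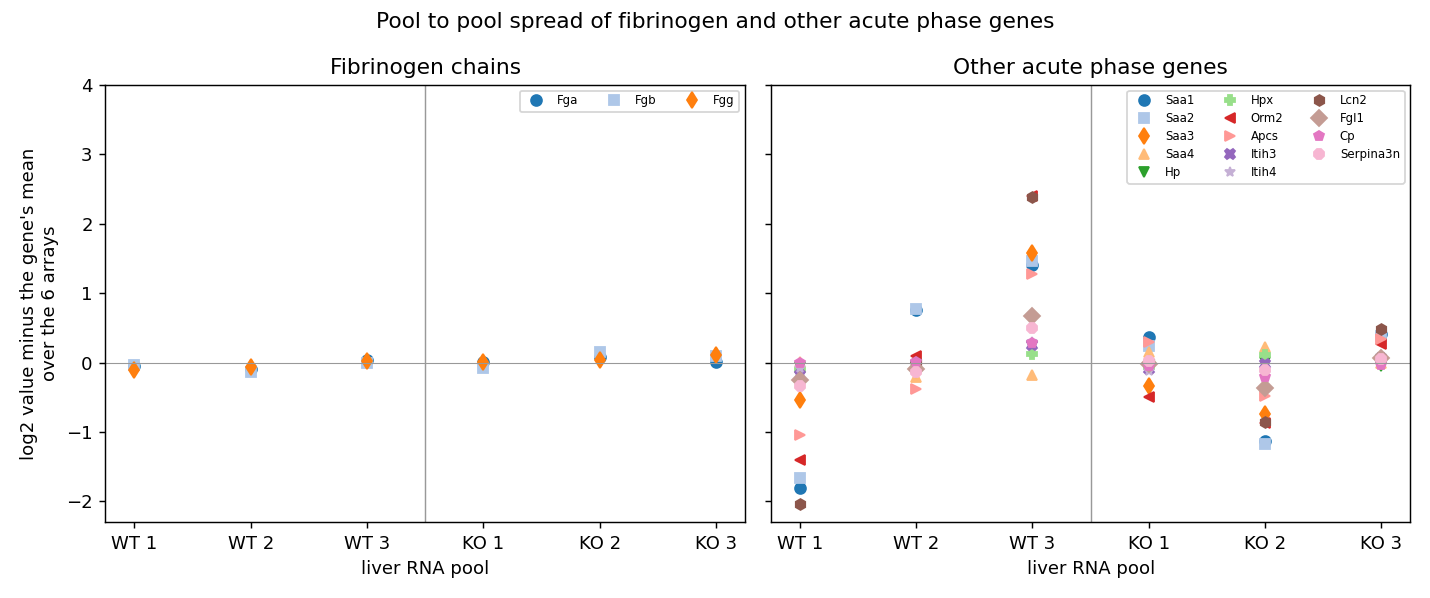
Log2 value minus the gene's own mean over the 6 arrays (vertical axis) in each liver RNA pool (WT wild type, KO Nrg4 knockout, replicates 1 to 3) for the fibrinogen chains (left) and the 14 other acute phase genes tested (right), on the same scale. The fibrinogen points stay close to 0 in every pool, while 13 of 14 of the other genes peak in wild-type replicate 3.

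Between the genotypes, the acute phase list had a median log2 difference of -0.16, with 3 of 14 genes higher and 11 lower, and 0 of 14 passed limma's adjusted threshold; 1 of 14 had an unadjusted p under 0.05. Without wild-type replicate 3 the median was 0.17, so its sign rests on that pool, and without knockout replicate 2 it was -0.01. Its members of smallest p were Saa4 at 0.25, Cp, the copper carrier ceruloplasmin, at -0.19 and Saa3 at -0.69, with limma adjusted p-values of 0.488, 0.597 and 0.671. Another probe set of Cp stood at -0.60 (SE 0.12), with an unadjusted limma p of 0.00059 and an adjusted p of 0.142 in the fit of every probe set. It was dimmer, with means of 5.15 in wild type and 4.55 in the knockout, against 10.17 and 9.97 for the brightest. The median range over the 6 pools was 0.94 in this list, 0.22 in the coagulation genes and 0.37 over all genes tested.

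No gene of the other clotting lists passed either, and F8 had the smallest p-value. Of 36 other clotting genes in 4 lists, 28 were tested, 0 passed the adjusted threshold of limma, and 2 had an interval without 0. Among all genes tested, 9.55% had such an interval, which goes with an unadjusted limma p under 0.05. F8, the cofactor of factor IX that is made by endothelial cells, read 5.50, 5.26 and 5.32 in wild type and 5.81, 5.77 and 5.94 in the knockout. Every knockout pool lay above every wild-type pool, as in 11.7% of all genes tested. Its mean was 39.0% higher (95% interval 19.0% to 62.5%; log2 0.48, SE 0.10, unadjusted p = 0.00109, limma adjusted p = 0.19). The sinusoidal endothelial markers stood higher beside it: 8 of 10 had a higher mean, with a median log2 difference of 0.29, and the list mean lay between -0.35 and -0.02 in the wild-type pools and between 0.01 and 0.30 in the knockout pools. No marker of this list had a limma adjusted p under 0.05. Lyve1, a hyaluronan receptor of sinusoidal endothelium named after its value was seen, had the largest difference of the list. It was 2.44-fold higher without overlap between the groups (11.7% of all genes), with a limma adjusted p of 0.0743, which is under 0.10. Lyve1 has 2 probe sets, and only the brighter is given. At the other end of the list, Clec4g stood at -0.09 and Eng at -0.02. The part of cell makeup in the value of F8 was not tested, and in bulk liver more cells of a type and more RNA per cell cannot be told apart. Vwf, another endothelial clotting gene, chosen after its value was seen, had a log2 difference of -0.04. Its signal was lower than that of F8, with means of 3.59 in wild type and 3.56 in the knockout.

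Among the contact system and other clotting factors, 7 of 9 listed genes were tested, 4 higher and 3 lower, with a median log2 difference of 0.03 and 1 at an unadjusted p under 0.05, which was F8. That median was -0.0013 with the 60th percentile filter, -0.02 with the mean of probe sets and 0.0038 without knockout replicate 2, so its sign was not stable. F3, tissue factor, stood at 0.23 (limma adjusted p = 0.716) with means close to the limit for dim signal, and F13a1 was under that limit in the mean. The natural anticoagulants and inhibitors had 6 higher and 4 lower of 10 tested, with a median of 0.04, which was -0.04 without wild-type replicate 1 and -0.0073 without knockout replicate 3. Proz, a cofactor of the protein Z dependent inhibitor and the chromosomal neighbour of F10, read 9.75, 9.75 and 9.71 in wild type and 9.50, 9.57 and 9.58 in the knockout. All its knockout values lay below wild type, and its log2 difference was -0.19 (SE 0.08, unadjusted p = 0.0474, limma adjusted p = 0.52), while F7 and F10 stood at 0.12 and 0.06. In the fit of every probe set the interval of this brighter Proz probe set held 0 (-0.38 to 0.007). The second probe set of Proz gave -0.36 (SE 0.18). Procr, the endothelial receptor of protein C, stood at 0.21 and Pros1, the cofactor protein S, at 0.12, with limma adjusted p-values of 0.6 and 0.721. The signal of Procr was low, with means of 3.09 in wild type and 3.30 in the knockout.

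Fibrinolysis genes, whose products dissolve fibrin, had 3 higher and 3 lower of 6 tested and a median log2 difference of 0.02, or -0.0034 without wild-type replicate 2. Plaur, the urokinase receptor, stood at 0.15, Serpinf2, the plasmin inhibitor, at 0.12 and Fgl1, a fibrinogen-like protein, at -0.21, and limma gave adjusted p-values of 0.687, 0.76 and 0.806. Genes of the vitamin K cycle and of factor secretion had 4 higher and 1 lower of 5 tested, with a median of 0.03, or -0.0031 without knockout replicate 2. Furin, a protease that trims clotting factor precursors, stood at 0.13, Mcfd2, which helps to carry factors V and VIII out of the endoplasmic reticulum, at 0.09 and Vkorc1l1, a vitamin K epoxide reductase, at -0.04. Their limma adjusted p-values were 0.716, 0.814 and 0.939.

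**Figure D4:**
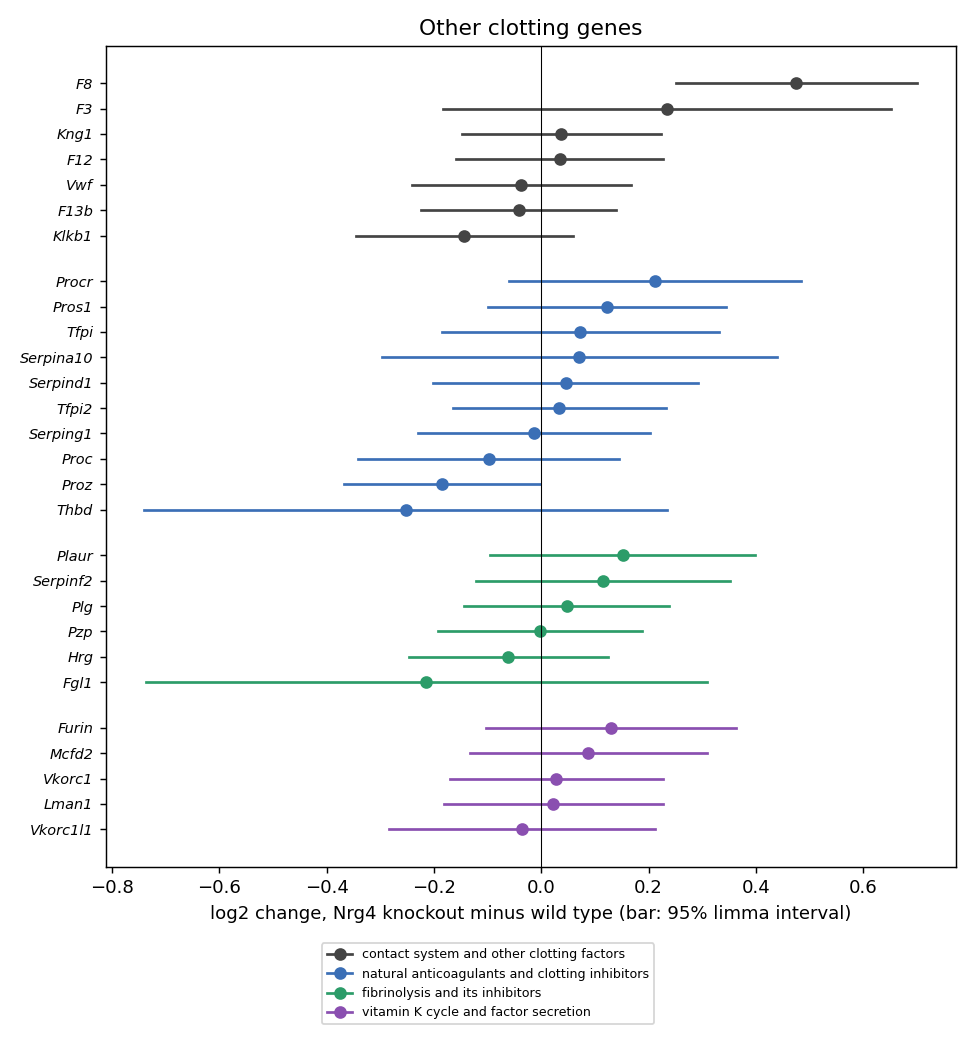
Log2 difference, knockout minus wild type (horizontal axis, bar: 95% limma interval), of the 28 other clotting genes tested, grouped by list. The interval excludes 0 in 2 of them, F8 at 0.48 and Proz at -0.19, and neither passed the adjusted threshold. Among all genes tested, 9.55% had an interval without 0.

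Liver transcription factors that act on fibrinogen and clotting factor promoters were listed together with genes of the interleukin-6 pathway. The list had 9 higher and 2 lower of 11 tested, and 0 of 11 passed (limma). In it 1 gene had an unadjusted limma p under 0.05, and the median log2 difference was 0.05. That median was 0.12 without knockout replicate 1, without knockout replicate 2 or with array weights. Foxa3, a forkhead factor of hepatocytes, stood at 0.36 (SE 0.15, limma adjusted p = 0.516). Stat3, which carries the interleukin-6 signal, read 6.79, 6.80 and 6.82 in wild type and 6.86, 6.997 and 7.16 in the knockout, a log2 difference of 0.20 (SE 0.10, limma adjusted p = 0.55). The groups did not overlap, but another probe set of Stat3 gave -0.17 (SE 0.10). Its means were 3.03 in wild type and 2.87 in the knockout, close to the limit for dim signal, 2.66. Il6st, the shared receptor chain of this pathway, stood at 0.15 (limma adjusted p = 0.655), and its other probe sets at -0.07 and -0.10. Those were also near the limit, with wild-type means of 3.19 and 2.78 against 7.04 for the brightest probe set of Il6st.

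The genes whose values over the 6 arrays were most like the mean of the 3 fibrinogen chains, by Pearson correlation, were Rars (r = 0.996), Col5a2 (0.988), Mterf2 (0.986), B230311B06Rik (0.986) and Tmx1 (0.985). These are descriptions over 6 arrays that share their normalization, and 217 genes had an r over 0.9.

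Several facts of the whole series frame these values. Nrg4 itself read 4.94, 4.79 and 4.77 in wild type and 2.56, 2.43 and 2.64 in the knockout, where it lay under the limit for dim signal (limma adjusted p = 4.76e-05), and none of the 10 coagulation genes shares its chromosome. Hepatocyte markers were present, with Alb between 12.30 and 12.41 in all pools and Pck1 dim. Their differences went both ways, 5 of 10 tested being higher, with a median of -0.002 (log2) and a highest value of 0.22. Their list mean was -0.12 in wild-type replicate 3 and -0.10 in knockout replicate 1, and between 0.02 and 0.09 in the other pools. Ass1 weighed most in this, at 8.68 and 8.66 in those pools and between 9.29 and 9.76 in the others. Alb was not low there, at 12.34 and 12.32. Of the other marker lists, Kupffer cell and macrophage markers were higher in 12 of 12 (median 0.34), stellate cell and matrix markers in 8 of 9 (0.18), lymphocyte markers in 6 of 8 (0.08), neutrophil markers in 3 of 5 (0.17), cholangiocyte markers in 2 of 2 (0.20), platelet markers in 3 of 5 (0.06) and red blood cell markers in 1 of 3 (-0.12), and none had a limma adjusted p under 0.05. Of the platelet markers, 2 had an unadjusted limma p under 0.05, Pf4 at -0.27 and Treml1 at -0.25, both lower without overlap. Among all genes tested, 2.18% were lower at that p and 3.92% were lower without overlap. Another 4 platelet markers were too dim to test. The 18S ribosomal RNA controls separated the genotypes, and the gap was widest at the 5′ end. The 3′ control lay between 7.45 and 7.73 in wild type and between 6.67 and 6.89 in the knockout, the middle control between 7.92 and 8.14 against 5.74 and 6.59, and the 5′ control between 8.12 and 8.80 against 5.61 and 6.71. Their part in the differences of the coagulation genes was not tested. With 3 arrays a genotype, the smallest p of an exact two-sided permutation test on 1 gene is 0.1.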

How the data were processed

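Liver RNA of wild-type and Nrg4 knockout mice was labelled and hybridised to 6 arrays. Per the submitters' processing notes, affy, RMA and limma were used, and the authors deposited log2 values; the labels state no version or build. RMA as usually run includes quantile normalization, which would reduce a shift of most genes. The number of arrays limits the precision.

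Of 45141 probe sets, 104 were controls and 28898 had 1 symbol. Genes whose brightest probe set lay under the 40th percentile of means (log2 2.66) were left out, which left 12466 of 17097. Genotypes were compared with limma 3.58.1 (lmFit, eBayes, two-sided, R 4.3.3), checked on simulated data. Figures used matplotlib 3.10.9.

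The members, gene lists and named genes (every member, Nrg4, of each clotting list the 3 genes of smallest p, and the 5 genes most like fibrinogen) were chosen with earlier results of these data known. Alternatives were renormalization, median centring, other filters, priors and weights, the mean of probe sets, a fit without each array in turn, a block on replicate number, and adjusted p under 0.10.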

Additional observations from a re-analysis of the deposited data

How the results depend on the processing

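No coagulation gene passed under any of 14 refits each or at adjusted p under 0.10, and the lowest limma adjusted p was 0.263. Of 140 refits, 2 turned a sign, both of F2, whose log2 difference ran from -0.013 to 0.077 over the fits without 1 array. The members' median ran from 0.05 to 0.11 over those fits. A second quantile normalization also turned the vitamin K list's median, to -0.00067. The count of all genes passing, 5, was 8 after a second quantile normalization, 3 with the 60th percentile filter, 38 with a variance trend and robust prior, 50 with array weights, 3 with the mean of probe sets, 30 at adjusted p under 0.10, and 1 to 17 without 1 array, with 17 without knockout replicate 1, 1 without wild-type replicate 2 or knockout replicate 3, and 2 without wild-type replicate 1 or 3 or knockout replicate 2; the causes were not tested. The other clotting lists, the transcription factor and interleukin-6 list and the acute phase list were counted together in the refits. They had 0 genes past the threshold in every refit. The lowest limma adjusted p in these lists together was 0.066 (array weights). The replicate numbers showed no pairing (correlations of same-numbered pools -0.15, 0.03 and -0.01); with the replicate number as a block 2 genes passed, Nrg4 among them, and no member. The median of the acute phase list ran from -0.32 to 0.17 over the fits without 1 array. Genes under the limit for dim signal were not tested.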
